A study of Homo sapiens with 18 samples.

Results

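The genes described here are HSPA8 and 9 further chaperone genes of the heat shock families. They comprise the HSP70 genes HSPA8, HSPA1A and HSPA1B, their exchange factor HSPH1, the J-domain genes DNAJA1 and DNAJB1, the HSP90 genes HSP90AA1 and HSP90AB1, and the chaperonin genes HSPD1 and HSPE1. HSPA8 was selected on the fall of its transcript with YKL-5-124 in these same libraries, so its changes with the drug are given as a description with no test. The other 9 genes were chosen by family membership, with earlier results of these data known. All 10 genes were found in the tables, of 26249 genes in all. The label under which the genes were grouped, cytosolic chaperones, does not hold for HSPD1 and HSPE1, whose proteins fold other proteins inside mitochondria.

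Transcripts were read from their 3′ ends in 18 libraries. The labels name 2 human cell lines of multiple myeloma, XG1 and AMO1. Myeloma is a cancer of plasma cells, the cells that secrete antibodies. Each line had been given DMSO, the solvent, or YKL-5-124 at 100 or 1000 nM, for 6 h in every group. YKL-5-124 is a covalent inhibitor of CDK7, a kinase that acts on RNA polymerase II and on the kinases of the cell cycle. The 6 groups were thus XG1 with DMSO, 100 nM and 1000 nM, and AMO1 with DMSO, 100 nM and 1000 nM, each with 3 libraries. The series title speaks of resistant lines and does not say to what. No label says that the 3 libraries of a group came from separate cultures, so each p-value measures only how far these libraries differ, a spread that may be technical.

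HSP70 proteins bind unfolded stretches of other proteins in a cycle driven by ATP. J-domain proteins bring the client and start ATP hydrolysis, and exchange factors such as HSPH1 release the spent nucleotide and with it the client. HSP90 takes over many clients, kinases and transcription factors among them, at a later stage of folding. Most of these genes have a basal level in growing cells and are raised further by the transcription factor HSF1, which binds heat shock elements, repeats of the unit GAA in alternating orientation. Plasma cells make large amounts of secreted protein and are known for a high demand on protein folding.

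The promoter sequences that bear on these genes are shown first, because the heat shock element is what most of these genes are known to have in common. Windows of 5 members are printed, each with the reason it is shown. The windows come from RefSeq on the build GRCh38.p14 and span 250 bases before to 50 bases after each annotated start. The deposited values used hg19, so the windows were matched to genes by symbol alone. All 10 genes had at least 1 window, 16 in all. The search was for a 2-unit element, GAANNTTC or TTCNNGAA, and a 3-unit element, GAANNTTCNNGAA or TTCNNGAANNTTC, on both strands. Every 3-unit element contains overlapping 2-unit elements. In the lines that follow, capitals mark these matches, and each sequence reads 5′ to 3′ along its gene.

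HSPA8, the member with the largest fall, with a 3-unit element at -230 and another at -55 from the start (chr11:123062087-123062386, minus strand): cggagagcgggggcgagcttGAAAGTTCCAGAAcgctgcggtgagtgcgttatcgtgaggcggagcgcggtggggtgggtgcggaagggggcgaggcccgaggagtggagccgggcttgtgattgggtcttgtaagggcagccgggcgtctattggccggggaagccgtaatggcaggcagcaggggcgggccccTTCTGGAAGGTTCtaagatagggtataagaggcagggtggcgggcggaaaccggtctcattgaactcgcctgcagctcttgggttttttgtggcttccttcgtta

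DNAJA1, the other member lower at 1000 nM in both lines by over 0.8 log2, with a 2-unit element at -198 and a 3-unit element at 4 (chr9:33025023-33025322, plus strand): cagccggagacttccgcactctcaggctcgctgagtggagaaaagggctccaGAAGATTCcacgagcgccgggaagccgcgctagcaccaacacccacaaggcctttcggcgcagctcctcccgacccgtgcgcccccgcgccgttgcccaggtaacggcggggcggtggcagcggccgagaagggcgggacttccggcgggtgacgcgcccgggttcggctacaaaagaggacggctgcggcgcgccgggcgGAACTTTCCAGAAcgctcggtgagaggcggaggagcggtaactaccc

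HSP90AB1, called at neither dose in either line when all libraries were used, with 3-unit elements at -165 and -112 of its start 3 (chr6:44247693-44247992, plus strand): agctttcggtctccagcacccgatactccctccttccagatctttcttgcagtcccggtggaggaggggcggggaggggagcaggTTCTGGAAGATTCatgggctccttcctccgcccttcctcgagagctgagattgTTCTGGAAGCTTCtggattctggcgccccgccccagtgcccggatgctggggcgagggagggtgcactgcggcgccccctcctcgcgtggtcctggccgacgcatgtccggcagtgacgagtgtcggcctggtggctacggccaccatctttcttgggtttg

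HSPA1A, high in one line and low in the other (chr6:31815293-31815592, plus strand): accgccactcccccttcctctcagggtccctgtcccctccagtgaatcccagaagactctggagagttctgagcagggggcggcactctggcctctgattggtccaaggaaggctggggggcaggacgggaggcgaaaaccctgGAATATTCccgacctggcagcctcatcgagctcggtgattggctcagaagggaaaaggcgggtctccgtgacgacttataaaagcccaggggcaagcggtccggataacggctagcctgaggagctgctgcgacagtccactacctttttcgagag

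HSPA1B, its neighbouring copy, present in both lines (chr6:31827488-31827787, plus strand): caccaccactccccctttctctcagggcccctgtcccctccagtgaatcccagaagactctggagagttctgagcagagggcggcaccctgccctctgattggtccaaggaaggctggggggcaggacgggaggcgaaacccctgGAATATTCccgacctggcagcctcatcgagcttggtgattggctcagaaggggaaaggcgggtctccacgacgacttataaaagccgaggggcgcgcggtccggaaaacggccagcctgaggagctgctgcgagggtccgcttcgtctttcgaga

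The 2-unit element was found in at least 1 window of 8 of the 10 members and in 13.5% of the 34943 windows of all genes. The 3-unit element was found for 5 members, HSPA8, DNAJA1, HSP90AA1, HSP90AB1 and HSPD1, and in 0.489% of all windows. Members with several annotated starts had more than 1 chance of a match, so these shares are not like for like. HSPA8 and HSP90AB1 both held 2 separate 3-unit elements. The HSPA1A and HSPA1B windows were identical at 277 of 299 bases (92.6%) when set side by side with a shift of 1 base, and each held a single 2-unit element. The first window of HSPD1 and the window of HSPE1 overlap on opposite strands, the 2 genes being known to share a promoter region. The second window of HSPD1, which held its elements, lies outside the HSPE1 window. The lack of a match for HSPE1 thus holds only for the bases searched and for exact letters. A match is a stretch of letters and says nothing of whether a factor was bound there.

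**Figure D1:**
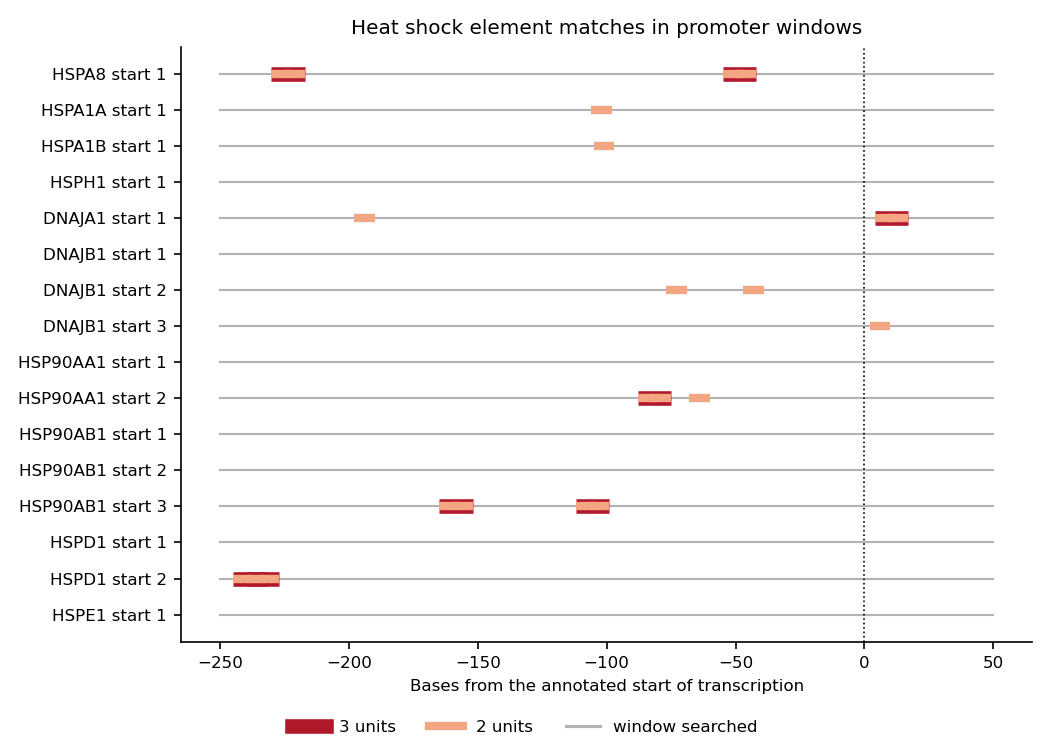
Matches to the heat shock element in the 16 promoter windows of the 10 members, plotted by distance in bases from the annotated start of transcription. Dark red marks elements of 3 units and orange those of 2 units. The windows of HSPA8, of HSP90AB1 start 3 and of HSPD1 start 2 show more than 1 match of 3 units, those of HSPD1 overlapping.

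Expression is given in FPKM, a read number divided by the length of the transcript and by the size of the library. Reads of 3′ libraries do not grow with transcript length, so a level in FPKM is compared here for 1 gene between libraries and not between genes. Between 9284 and 10571 genes reached 1 FPKM in a library, and libraries of a group had a correlation of 0.955 to 0.974 across genes. Read depth is unknown, and low values of a library piled up at a floor between 0.0745 and 0.1333 FPKM. AMO1 DMSO replicate 3 stood apart most, with 355 tested genes (2.91%) over 2-fold from both other replicates, followed by XG1 1000 nM replicate 2 with 280 (2.29%). The libraries labelled XG1 went against the labelled cell type. Of 10 plasma cell markers, 1 was at 10 FPKM or more in all 9 of these libraries, and IRF4, PRDM1, CD38, POU2AF1 and SLAMF7 were under 1 FPKM in all of them. In the AMO1 libraries 9 of the 10 were at 10 FPKM or more throughout. Of 15 erythroid markers, 9 were at 10 FPKM or more in all XG1 libraries, with a summed level of 3545 to 4251 FPKM, and 0 in AMO1, with a summed level of 2.48 to 28.3 FPKM. Of 10 T cell and myeloid markers, 1 reached 10 FPKM in all XG1 libraries and 0 in AMO1. XG1 stands here for the libraries so labelled.

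HSPA8 encodes the constitutive HSP70 of the cytosol, which also strips clathrin from vesicles. In XG1 it stood at 157.3, 150.2 and 133.4 FPKM with DMSO, at 38.2, 66.1 and 54.6 FPKM with 100 nM, and at 36.8, 34.8 and 46.3 FPKM with 1000 nM. In AMO1 it stood at 232.8, 199.0 and 266.9 FPKM with DMSO, at 105.5, 70.1 and 105.3 FPKM with 100 nM, and at 34.1, 49.6 and 63.1 FPKM with 1000 nM. Every treated library lay below every DMSO library of its line. The 2 doses overlapped in XG1 and not in AMO1. The group mean at 1000 nM was 26.7% of the DMSO mean in XG1 and 21.0% in AMO1, and at 100 nM it was 36.0% in XG1 and 40.2% in AMO1. On the log2(FPKM + 1) scale the changes were -1.49 at 100 nM and -1.88 at 1000 nM in XG1, and -1.32 at 100 nM and -2.26 at 1000 nM in AMO1, each with an SE of 0.22. In bulk RNA such a change cannot tell fewer transcripts per cell from fewer cells that express the gene. Of the 50-base words in the last 300 bases of the HSPA8 transcripts, 18.1% also occur in other genes, 10 of them. The share was 15.1% for HSPE1, 13.6% for HSPD1, 5.26% for DNAJB1, 2.29% for HSP90AA1 and 0 for the other 5 members, and the handling of such reads is not stated.

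**Figure D2:**
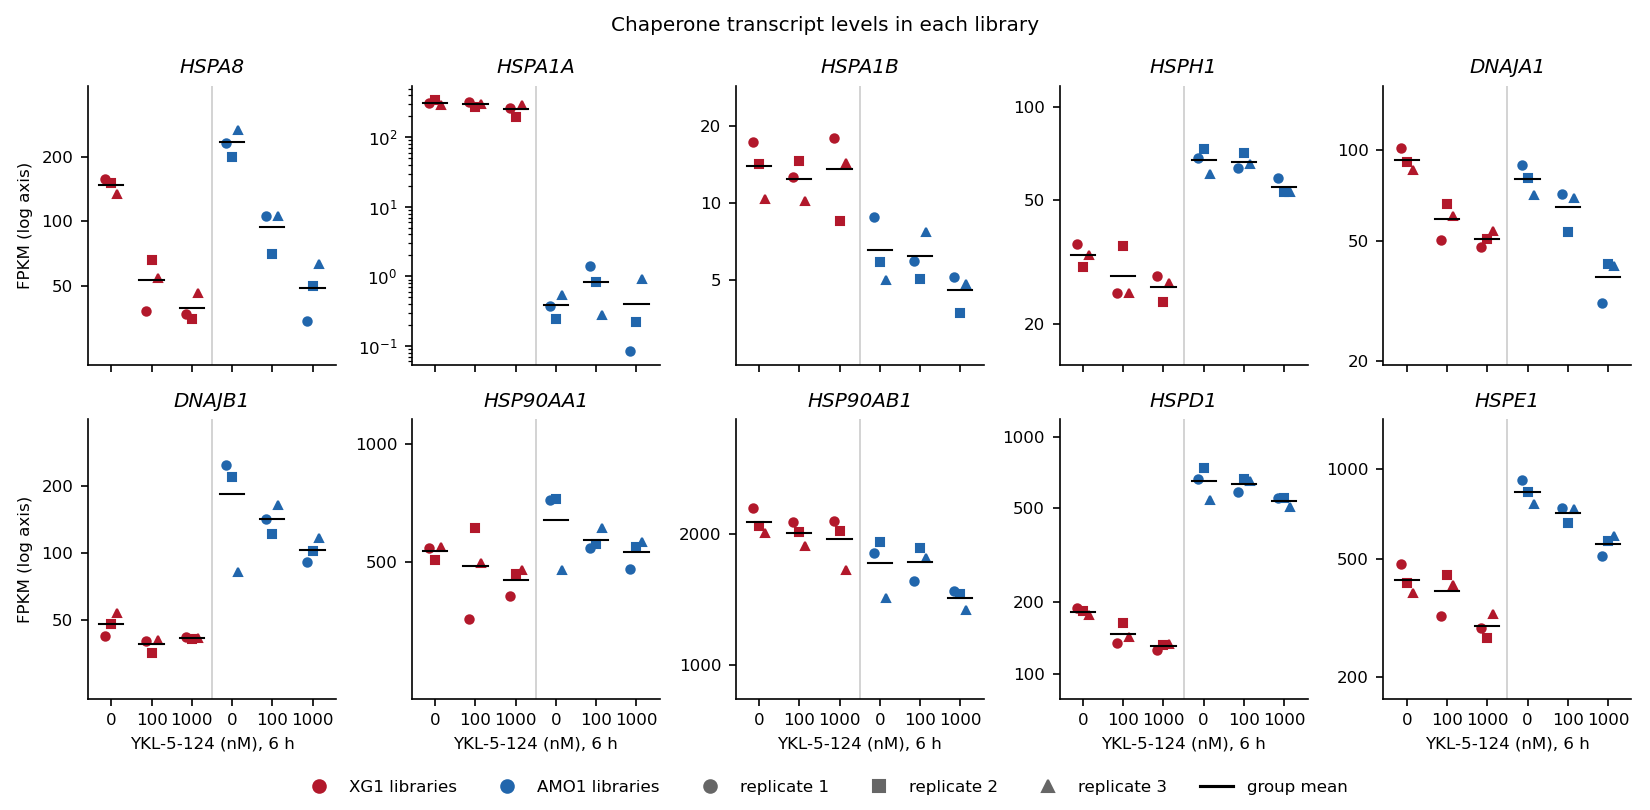
FPKM of the 10 members in each of the 18 libraries (log axis, 1 panel per gene), by YKL-5-124 concentration in nM, where 0 is DMSO, with XG1 libraries in red and AMO1 libraries in blue. Symbols mark the replicate and bars the group mean. HSPA8 shows all treated libraries below the DMSO libraries of both lines, and HSPA1A lies at 193.7 to 342.0 FPKM in XG1 and 0.0844 to 1.39 FPKM in AMO1.

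HSPA1A encodes the stress-inducible HSP70. Its levels in XG1 were 309.9, 342.0 and 293.6 FPKM with DMSO, 320.4, 269.7 and 303.4 FPKM with 100 nM, and 266.5, 193.7 and 296.1 FPKM with 1000 nM. The XG1 groups overlapped, and the change at 1000 nM was -0.34 ± 0.22 (log2 ± SE, limma adjusted p = 0.327). In AMO1 the transcript was low in all 9 libraries, 8 of them under 1 FPKM, with values of 1.03 to 16.1 times the floor of their library, so it passed the filter on low values through XG1 alone. A change of HSPA1A with the drug in AMO1 is not read from such values, also where it is listed or counted below.

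HSPA1B encodes a protein nearly identical to that of HSPA1A. The XG1 libraries had 17.4, 14.3 and 10.4 FPKM with DMSO, 12.7, 14.6 and 10.1 FPKM with 100 nM, and 18.02, 8.5 and 14.4 FPKM with 1000 nM. Its levels in AMO1 were 8.8, 5.9 and 5.0 FPKM with DMSO, 5.9, 5.0 and 7.7 FPKM with 100 nM, and 5.1, 3.7 and 4.8 FPKM with 1000 nM. The dose groups overlapped in both lines and no change passed the test, the lowest being -0.42 ± 0.25 at 1000 nM in AMO1 (limma adjusted p = 0.275). Reads could in principle be split between these copies. None of the 50-base words in the last 300 bases of either gene's transcripts occurs in another gene in GENCODE 29, in which each gene had 251 such words. Within libraries, log2(FPKM + 1) of HSPA1A minus that of HSPA1B lay between 3.81 and 4.77 in XG1 and between -2.83 and -1.54 in AMO1. The gap between the lines is not read, since HSPA1A passed the filter through XG1 alone and had to differ. The sign of the difference between the copies is not read either, since levels are not compared between genes here.

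HSPH1 encodes HSP110, which exchanges the nucleotide of HSP70. XG1 libraries held it at 36.2, 30.5 and 33.4 FPKM with DMSO, at 25.1, 35.7 and 25.2 FPKM with 100 nM, and at 28.5, 23.6 and 27.1 FPKM with 1000 nM. The AMO1 libraries had 68.4, 72.9 and 60.6 FPKM with DMSO, 63.6, 71.1 and 65.3 FPKM with 100 nM, and 59.2, 53.1 and 53.4 FPKM with 1000 nM. At 1000 nM the treated libraries lay below the DMSO libraries in both lines, by small margins. The changes of -0.33 ± 0.15 in XG1 (limma adjusted p = 0.134) and -0.28 ± 0.15 in AMO1 (limma adjusted p = 0.219) did not pass the test.

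DNAJA1 encodes a J-domain partner of HSP70 in the cytosol. Values in XG1 were 101.6, 91.5 and 85.5 FPKM with DMSO, 50.2, 66.0 and 60.4 FPKM with 100 nM, and 47.6, 50.8 and 54.0 FPKM with 1000 nM. AMO1 libraries held it at 89.1, 80.5 and 71.2 FPKM with DMSO, at 71.4, 53.5 and 69.2 FPKM with 100 nM, and at 31.0, 41.8 and 41.3 FPKM with 1000 nM. At 1000 nM all treated libraries lay below all DMSO libraries in both lines, while at 100 nM in AMO1 the groups overlapped, with 71.4 FPKM in the highest treated library and 71.2 FPKM in the lowest DMSO library. The transcript fell to 54.7% of the DMSO mean at 1000 nM in XG1 and to 47.4% in AMO1. The log2 changes at 1000 nM were -0.86 ± 0.16 in XG1 (limma adjusted p = 0.00108) and -1.06 ± 0.16 in AMO1 (limma adjusted p = 1.74e-04). At 100 nM the transcript fell in XG1 by 0.65 ± 0.16 (limma adjusted p = 0.0161), a call lost when any of XG1 DMSO replicate 1, XG1 DMSO replicate 2 or XG1 100 nM replicate 1 was left out (0.0716, 0.0536 and 0.0846). In AMO1 the change at 100 nM was -0.31 ± 0.16 (limma adjusted p = 0.358).

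DNAJB1 encodes HSP40, the J-domain protein that also takes part in switching HSF1 off. In XG1 it stood at 42.7, 48.1 and 53.9 FPKM with DMSO, at 40.3, 35.5 and 40.9 FPKM with 100 nM, and at 41.8, 41.4 and 41.7 FPKM with 1000 nM. Values in AMO1 were 250.3, 219.8 and 82.6 FPKM with DMSO, 142.2, 122.6 and 164.2 FPKM with 100 nM, and 91.3, 102.6 and 116.9 FPKM with 1000 nM. AMO1 DMSO replicate 3 was below all 6 treated AMO1 libraries, and the other 2 DMSO libraries were above all of them. With all libraries the change at 1000 nM in AMO1 was -0.68 ± 0.27 (limma adjusted p = 0.0978). Without that library it was -1.18 ± 0.14 (limma adjusted p = 2.81e-05), and at 100 nM it was -0.72 ± 0.14 (limma adjusted p = 0.00571). In XG1 every treated library lay below every DMSO library, with 41.8 FPKM in the highest treated library and 42.7 FPKM in the lowest DMSO library. No change of DNAJB1 passed the test there, the values being -0.30 ± 0.27 at 100 nM (limma adjusted p = 0.608) and -0.20 ± 0.27 at 1000 nM (limma adjusted p = 0.685). Their SE is pooled over all groups and takes in the spread of AMO1 DMSO replicate 3. The XG1 changes were not refitted with only that library left out.

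HSP90AA1 encodes the inducible HSP90 of the cytosol. Its levels in XG1 were 544.0, 505.4 and 546.8 FPKM with DMSO, 357.1, 611.9 and 497.7 FPKM with 100 nM, and 408.7, 466.7 and 475.6 FPKM with 1000 nM. In AMO1 it stood at 718.6, 723.8 and 475.8 FPKM with DMSO, at 541.8, 555.3 and 610.8 FPKM with 100 nM, and at 479.7, 544.2 and 563.1 FPKM with 1000 nM. AMO1 DMSO replicate 3 was again the lowest of the AMO1 libraries. The 1000 nM libraries all lay below the DMSO libraries in XG1 and overlapped them in AMO1. The changes at 1000 nM, -0.24 ± 0.18 in XG1 (limma adjusted p = 0.387) and -0.25 ± 0.18 in AMO1 (limma adjusted p = 0.379), did not pass the test.

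HSP90AB1 encodes the constitutive HSP90. The XG1 libraries had 2287, 2080 and 2012 FPKM with DMSO, 2129, 2017 and 1880 FPKM with 100 nM, and 2145, 2033 and 1649 FPKM with 1000 nM. Its levels in AMO1 were 1805, 1911 and 1424 FPKM with DMSO, 1559, 1851 and 1757 FPKM with 100 nM, and 1476, 1454 and 1340 FPKM with 1000 nM. Each dose overlapped DMSO in both lines, and in AMO1 the 1000 nM libraries all lay below the 100 nM libraries. The mean at 1000 nM was 91.3% of the DMSO mean in XG1 and 83.1% in AMO1, and the log2 changes of -0.14 ± 0.14 in XG1 (limma adjusted p = 0.55) and -0.26 ± 0.14 in AMO1 (limma adjusted p = 0.218) did not pass the test. Within libraries, log2(FPKM + 1) of HSP90AA1 minus that of HSP90AB1 averaged -2.10 ± 0.30 at 1000 nM and -2.00 ± 0.10 with DMSO in XG1 (SD, n = 3 each). The same difference in AMO1 averaged -1.43 ± 0.19 at 1000 nM and -1.44 ± 0.13 with DMSO (SD, n = 3 each).

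HSPD1 encodes HSP60, the barrel of the mitochondrial chaperonin. XG1 libraries held it at 188.9, 183.3 and 176.3 FPKM with DMSO, at 135.4, 164.1 and 142.5 FPKM with 100 nM, and at 125.5, 132.2 and 133.6 FPKM with 1000 nM. The AMO1 libraries had 668.8, 743.1 and 543.3 FPKM with DMSO, 583.8, 663.9 and 653.4 FPKM with 100 nM, and 554.0, 554.1 and 505.5 FPKM with 1000 nM. In XG1 the treated libraries all lay below the DMSO libraries, and in AMO1 each dose overlapped DMSO, with the 1000 nM libraries all below the 100 nM libraries. It fell at 1000 nM in XG1, with a change of -0.48 ± 0.13 (limma adjusted p = 0.0143), and without XG1 DMSO replicate 1 its adjusted p was 0.0591. The change at 1000 nM in AMO1 was -0.27 ± 0.13 (limma adjusted p = 0.176).

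HSPE1 encodes HSP10, the lid of the same chaperonin. Values in XG1 were 478.6, 413.7 and 382.8 FPKM with DMSO, 321.1, 441.3 and 406.2 FPKM with 100 nM, and 291.5, 270.6 and 326.8 FPKM with 1000 nM. AMO1 libraries held it at 918.8, 836.4 and 763.7 FPKM with DMSO, at 737.7, 661.1 and 735.2 FPKM with 100 nM, and at 510.6, 572.3 and 595.6 FPKM with 1000 nM. At 1000 nM every treated library lay below every DMSO library in both lines. It fell in both lines, with changes of -0.52 ± 0.14 in XG1 (limma adjusted p = 0.0153) and -0.58 ± 0.14 in AMO1 (limma adjusted p = 0.00693). The XG1 call was lost without XG1 DMSO replicate 1 (0.0932) and without XG1 1000 nM replicate 2 (0.0785), and the AMO1 call was lost in a fit of the compared libraries alone (0.0588). HSPD1 minus HSPE1, as log2(FPKM + 1) within libraries, averaged -1.17 ± 0.13 at 1000 nM and -1.21 ± 0.12 with DMSO in XG1 (SD, n = 3 each), and -0.055 ± 0.18 at 1000 nM and -0.37 ± 0.18 with DMSO in AMO1 (SD, n = 3 each).

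**Figure D3:**
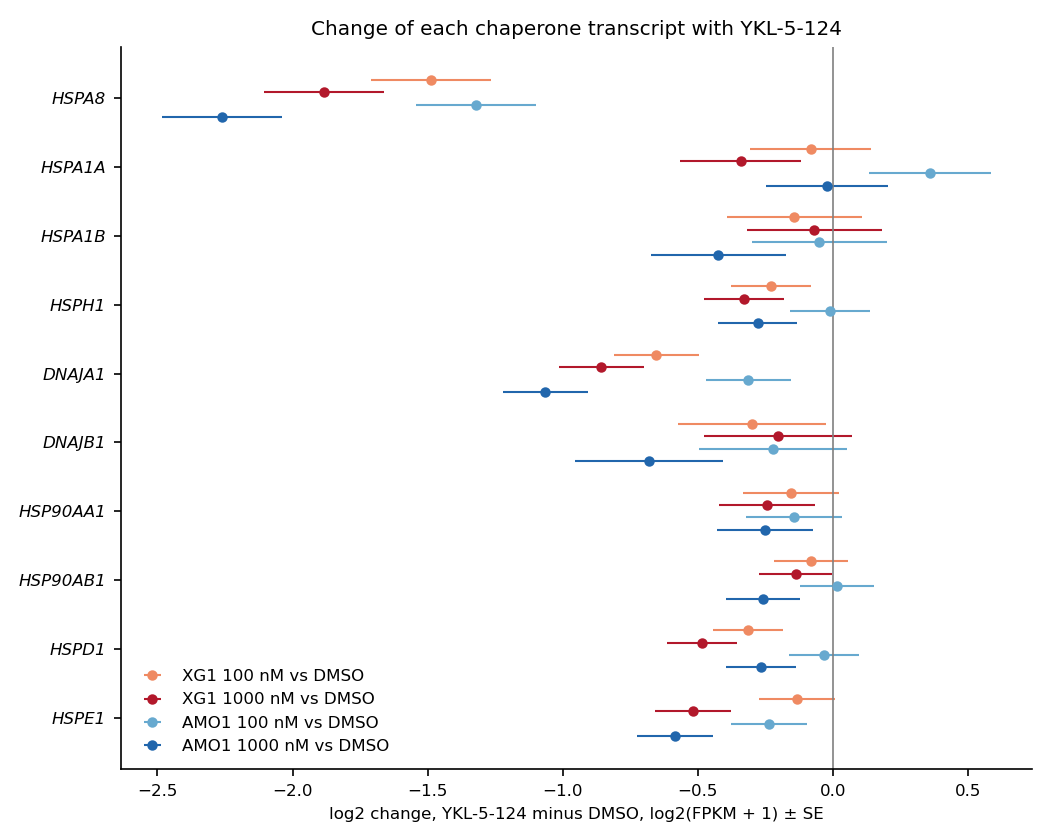
Change of each member with YKL-5-124 at 100 and 1000 nM against DMSO in each line, as log2(FPKM + 1) differences. Points are limma estimates and bars 1 SE. HSPA8 lies farthest to the left in all 4 comparisons, from -1.32 to -2.26, and DNAJA1 comes next at 1000 nM. The AMO1 points of HSPA1A rest on low values and are not read.

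HSPA8 was selected on these changes and is left out of the counts. Of the 9 other members, 1 was called lower at 100 nM in XG1 (DNAJA1), where 3.98% of the 12204 genes tested were called lower. At 1000 nM in XG1, 3 of the 9 were called lower (DNAJA1, HSPD1 and HSPE1), where 15.7% of all genes were. In AMO1, limma called 0 of the 9 at 100 nM, beside 1.76% of all genes called lower, and 0 had an unadjusted p under 0.05. Limma without trend or robust estimation also called 0 of them. At 1000 nM in AMO1, 2 of the 9 were called lower (DNAJA1 and HSPE1), beside 15.4% of all genes. None of the 9 was called higher in these 4 comparisons. Over all genes tested, 2.63% were called higher at 100 nM and 1.9% at 1000 nM in XG1. In AMO1 0.434% were at 100 nM and 1.78% at 1000 nM. The count of 0 is near those shares and is not read as a result about the members. Their median log2 change was -0.16 at 100 nM and -0.33 at 1000 nM in XG1, beside -0.011 and -0.19 over all genes tested. In AMO1 it was -0.050 at 100 nM and -0.28 at 1000 nM, beside -0.087 and -0.18. The 2 doses of a line share their DMSO libraries. Here and below, AMO1 drug counts, AMO1 medians and comparisons of the lines' responses over the 9 include HSPA1A. Its lack of a call there is not read, given its low AMO1 values. Some cell type markers also moved with the drug. The summed erythroid markers of XG1 lay at 4013 to 4251 FPKM with DMSO, at 3844 to 3952 FPKM with 100 nM and at 3545 to 4193 FPKM with 1000 nM. Of the 12 erythroid markers tested, 3 were called lower at 1000 nM in XG1 and 0 higher, KLF1 (-1.92), HEMGN (-1.99) and GATA1 (-0.56), the last not called after centring (limma adjusted p = 0.108). The summed plasma cell markers of XG1 lay at 44.4 to 55.2 FPKM at 1000 nM and at 72.1 to 75.9 FPKM with DMSO, and those of AMO1 at 4808 to 5454 FPKM at 1000 nM and at 5215 to 7249 FPKM with DMSO. Most of the XG1 sum was XBP1, with a mean of 31.2 FPKM at 1000 nM and 53.9 FPKM with DMSO. The median log2 change over the 10 markers at 1000 nM was 0.083 in XG1 and -0.37 in AMO1, beside -0.19 and -0.18 over all genes tested. Of the 10 plasma cell markers, 1 was called lower at 1000 nM in XG1, XBP1 (-0.77), and 3 in AMO1, SLAMF7 (-1.17), TNFRSF17 (-0.89) and IRF4 (-0.67). After centring 1 of the 10 was called lower at 1000 nM in each line. SLAMF7 was also lower at 100 nM in AMO1 (-0.94). The part of these markers in the members' changes was not tested.

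The median of all genes was itself lower at 1000 nM, so the counts were also taken on centred values. With each library centred on its median, the median change of all genes became 0.066 in XG1 and 0.11 in AMO1. The share of lower genes among all calls moved to 50% after centring, against 89.2% as deposited, in XG1, and to 44.6%, against 89.6%, in AMO1, a shift towards an even split that centring brings by its construction. Then 1 of the 9 members other than HSPA8, DNAJA1, was called lower at 1000 nM in each line, beside 7.94% of all genes in XG1 and 6.68% in AMO1. DNAJA1 then changed by -0.60 in XG1 (limma adjusted p = 0.00814) and by -0.77 in AMO1 (limma adjusted p = 0.00157). HSPD1 in XG1 and HSPE1 in both lines did not pass after centring, with limma adjusted p values of 0.305, 0.176 and 0.13.

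The AMO1 counts changed when AMO1 DMSO replicate 3 was left out. Without it 6 of the 9 members other than HSPA8 were called lower at 1000 nM, beside 23.7% of all genes, and 1 of the 9 at 100 nM, DNAJB1, beside 7.23%. The members gained at 1000 nM were DNAJB1, HSP90AA1 (-0.45 ± 0.16, limma adjusted p = 0.0438), HSP90AB1 (-0.39 ± 0.11, limma adjusted p = 0.0184) and HSPD1 (-0.39 ± 0.10, limma adjusted p = 0.0105). The fit pools the spread over all groups, and leaving out a library also removes its own deviation from that spread. The SE of DNAJB1 was 0.14 without AMO1 DMSO replicate 3 and 0.27 with it.

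**Figure D4:**
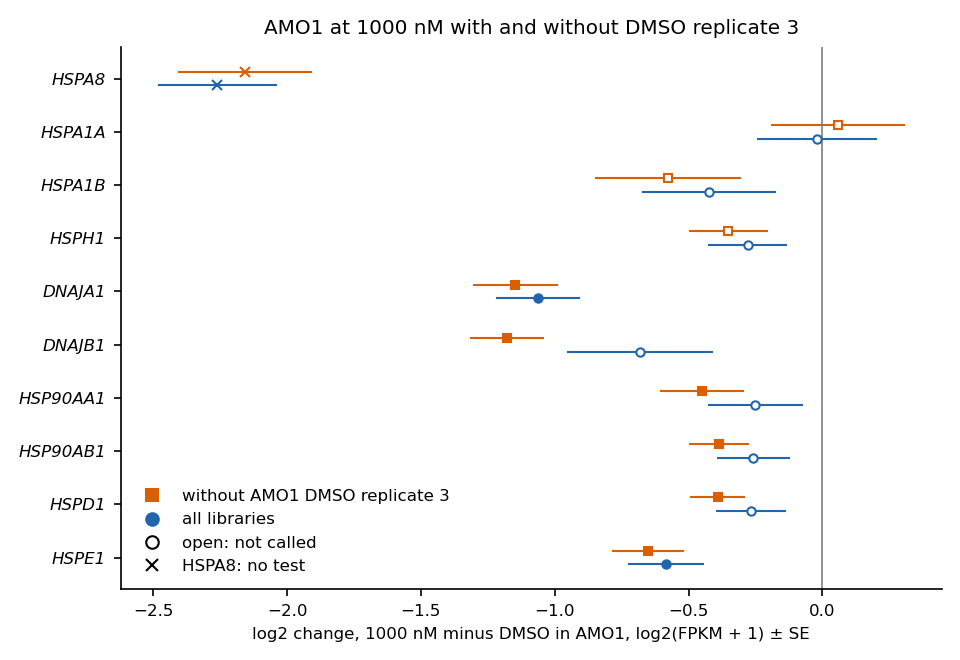
Change of each member at 1000 nM against DMSO in AMO1, without AMO1 DMSO replicate 3 (orange squares) and with all libraries (blue circles), as log2(FPKM + 1) differences with bars of 1 SE. Open symbols did not pass the test, and crosses mark HSPA8, which was not tested. The points of HSPA1A rest on low values and are not read. DNAJB1 moves most, to -1.18 without the library against -0.68 with it.

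The factors that drive these genes were looked at beside them. HSF1, the main heat shock factor, stood at 23.8 to 31.1 FPKM at 1000 nM and at 21.1 to 30.1 FPKM with DMSO in AMO1. In XG1 it stood at 27.7 to 34.7 FPKM at 1000 nM and at 29.4 to 36.1 FPKM with DMSO. HSF2, a second heat shock factor, stood at 72.7 to 87.4 FPKM at 1000 nM in AMO1, against 94.0, 85.8 and 34.4 FPKM with DMSO, replicate 3 being the low one as for DNAJB1. In XG1 HSF2 stood at 31.2 to 35.7 FPKM at 1000 nM and at 30.2 to 33.6 FPKM with DMSO. Neither HSF1 nor HSF2 was called at either dose in either line. Of the 7 listed heat shock factors and regulators, 0 was called in any of these 4 comparisons. Over all genes tested, 6.61% were called at 100 nM and 17.6% at 1000 nM in XG1, and 2.2% and 17.1% in AMO1. With so few genes the count of 0 is not read as a result about this list. After centring 1 was called lower at 100 nM in XG1, for which the share of all genes is not given here. A transcript level says nothing of the activity of these factors.

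Other chaperone genes were followed in lists written with earlier results of these data known. Of 17 tested HSP70 partners, 3 were called lower and 1 higher at 100 nM in XG1, where 3.98% of all genes were called lower and 2.63% higher. These were BAG2, an exchange factor of HSP70 (-0.75), DNAJC2, a J-domain protein of the ribosome (-0.71), DNAJC7 (-0.64), and, as the higher one, DNAJB4 (0.96), with limma adjusted p values of 0.0138, 0.0465, 0.0465 and 0.03. After centring DNAJC7 was not called (limma adjusted p = 0.0754), and the list still had 3 lower and 1 higher. At 1000 nM BAG2 changed by -0.99 in XG1 and -1.27 in AMO1, and DNAJC2 by -0.64 in XG1 and -0.98 in AMO1, all past the threshold. That list had 3 lower and 0 higher at 1000 nM in each line, where 15.7% of all genes in XG1 and 15.4% in AMO1 were called lower. Its median was -0.23 in XG1 and -0.15 in AMO1, beside -0.19 and -0.18 over all genes. After centring it had 1 lower and 2 higher in XG1, and 2 lower and 3 higher in AMO1, where 7.94% of all genes were called lower and 7.94% higher in XG1, and 6.68% lower and 8.29% higher in AMO1.

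The counts of the further lists stand beside the same shares of all genes, 15.7% lower at 1000 nM in XG1 and 15.4% in AMO1, and several are near them. Of 12 HSP90 co-chaperones, 3 were called lower at 1000 nM in XG1, namely FKBP5 (-0.80), CHORDC1 (-0.78) and PPID (-0.55). In AMO1 4 were, led by CHORDC1 (-0.97), PTGES3 (-0.86), the p23 protein that stabilises closed HSP90, and PPID (-0.60). Of 9 further mitochondrial chaperones and proteases, 4 were lower at 1000 nM in XG1, led by HTRA2 (-0.85), HSCB (-0.81) and DNAJA3 (-0.71), and 2 in AMO1, DNAJA3 (-0.81) and HTRA2 (-0.55). Of 15 subunits of the cytosolic chaperonin TRiC and of prefoldin, 2 were lower at 1000 nM in XG1, CCT2 (-0.61) and CCT6A (-0.56), and 5 in AMO1, led by PFDN2 (-0.90) and CCT2 (-0.54). HSPA5, the HSP70 of the endoplasmic reticulum, fell by 0.99 at 1000 nM in XG1 and fell by 0.77 in AMO1 (limma adjusted p = 4.64e-04 and 0.00323). Of the 13 listed chaperones of that compartment, 2 were lower at 1000 nM in XG1, HSPA5 and HSPA13 (-0.55), and 1 in AMO1. None of 5 tested small heat shock proteins was called at either dose in either line, 1 being called higher at 1000 nM in AMO1 after centring. At 100 nM, PPID (-0.55) and HSPA5 (-0.95) were lower in XG1, where 3.98% of all genes were. No gene of any of these lists was called at 100 nM in AMO1, where 1.76% of all genes were called lower. The list medians at 1000 nM were -0.36 in XG1 and -0.28 in AMO1 for HSP90 co-chaperones, -0.44 and -0.24 in the same order for mitochondrial chaperones, and -0.26 and -0.40 for TRiC and prefoldin. For chaperones of the endoplasmic reticulum they were -0.13 and -0.055, beside -0.19 and -0.18 for all genes tested. After centring, HSP90 co-chaperones had 2 lower and 2 higher in XG1 and 2 lower and 1 higher in AMO1, TRiC and prefoldin had 0 lower in XG1 and 1 in AMO1, and the endoplasmic reticulum list had 1 lower in XG1 and 0 in AMO1. The mitochondrial list then had 2 lower and 1 higher in XG1, and 1 lower in AMO1.

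The doses were also set against each other. Between 1000 and 100 nM none of the 9 members other than HSPA8 was called in XG1, where 0.139% of all genes were, and none in AMO1, where 0.18% were. At an unadjusted p under 0.05 limma gave 1 of the 9 in XG1 (HSPE1) and 2 in AMO1 (DNAJA1 and HSPE1), and limma without trend or robust estimation also called none. DNAJA1 in AMO1 stood at 31.0 to 41.8 FPKM at 1000 nM and at 53.5 to 71.4 FPKM at 100 nM, groups that did not overlap, with a difference of -0.75 ± 0.16 (limma adjusted p = 0.059). It passed under 4 of the alternatives run, leaving out AMO1 100 nM replicate 2 among them, with adjusted p values of 0.0367 to 0.048.

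The response to the drug was then compared between the lines, as the XG1 change minus the AMO1 change. None of the 9 members other than HSPA8 was called at 100 nM, where 0.156% of all genes were, nor at 1000 nM, where 0.68% were, and none had an unadjusted p under 0.05 at either dose. Limma without trend or robust estimation also called none. The differences at 1000 nM had SEs of 0.18 to 0.39 log2. That of HSPA1A is not read, given its low AMO1 values. Without AMO1 DMSO replicate 3, DNAJB1 was called at 1000 nM with a difference of 0.98 ± 0.19 (limma adjusted p = 0.0151), beside 1.35% of all genes. That difference was 0.48 ± 0.39 with all libraries (limma adjusted p = 0.781).

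With no drug, 62.7% of all genes tested were called different between the lines, and most members were among them. The deposited values also differed in scale. Summed over all genes, the DMSO libraries held 771880 to 957143 FPKM in XG1 and 1.649e+06 to 1.896e+06 FPKM in AMO1. The part of this gap in the differences below was not tested. HSPA1A passed the filter through its high line alone, so it had to differ and its difference is given with no test. Of the 9 other members, 2 were called higher in XG1 than in AMO1 with DMSO, beside 28.3% of all genes tested, and 5 lower, beside 34.4%. HSPA1A averaged 315.2 ± 24.6 FPKM in XG1 and 0.387 ± 0.151 FPKM in AMO1 (SD, n = 3 each), a difference of 7.84 log2. That size depends on the value added before taking logs, being 9.38 with 0.1 FPKM and 5.89 with 5 FPKM. HSPA1B was higher by 1.00 ± 0.25 (limma adjusted p = 0.00169). HSP90AB1 was higher by 0.32 ± 0.14 (limma adjusted p = 0.0471), a call lost under most alternatives, among them each left-out XG1 library (0.0551 to 0.15) and AMO1 DMSO replicate 3 (0.144).

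HSPD1 averaged 182.8 ± 6.29 FPKM in XG1 and 651.7 ± 101 FPKM in AMO1 (SD, n = 3 each), a difference of -1.82 ± 0.13 log2 (limma adjusted p = 1.72e-10). DNAJB1 averaged 48.2 ± 5.597 FPKM in XG1 and 184.2 ± 89.4 FPKM in AMO1 (SD, n = 3 each), a difference of -1.77 ± 0.27 (limma adjusted p = 1.84e-05). HSPH1 and HSPE1 were lower in XG1 by about as much as each other, with -0.99 ± 0.15 and -0.98 ± 0.14 (limma adjusted p = 7.45e-06 and 4.3e-06). HSPA8 averaged 147.0 ± 12.3 FPKM in XG1 and 232.9 ± 34.0 FPKM in AMO1 (SD, n = 3 each), a difference of -0.65 ± 0.22 (limma adjusted p = 0.0148). That call was lost after quantile normalization (-0.20, adjusted p = 0.456), without XG1 DMSO replicate 3 (0.0534) and without AMO1 DMSO replicate 3 (0.0652). DNAJA1 (0.21) and HSP90AA1 (-0.24) were not called, with limma adjusted p values of 0.253 and 0.248. Both were called higher in XG1 after quantile normalization, with differences of 0.60 and 0.44, while without AMO1 DMSO replicate 3 HSP90AA1 was called lower (-0.44, adjusted p = 0.0207). The ERCC spike-in RNAs, synthetic RNAs added to samples, differed between the lines with an SD of 0.54 log2 over 44 of them, which is more than the difference of HSP90AB1. The markers of another cell type in the XG1 libraries stand beside all of these differences, and their part in them was not tested.

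**Figure D5:**
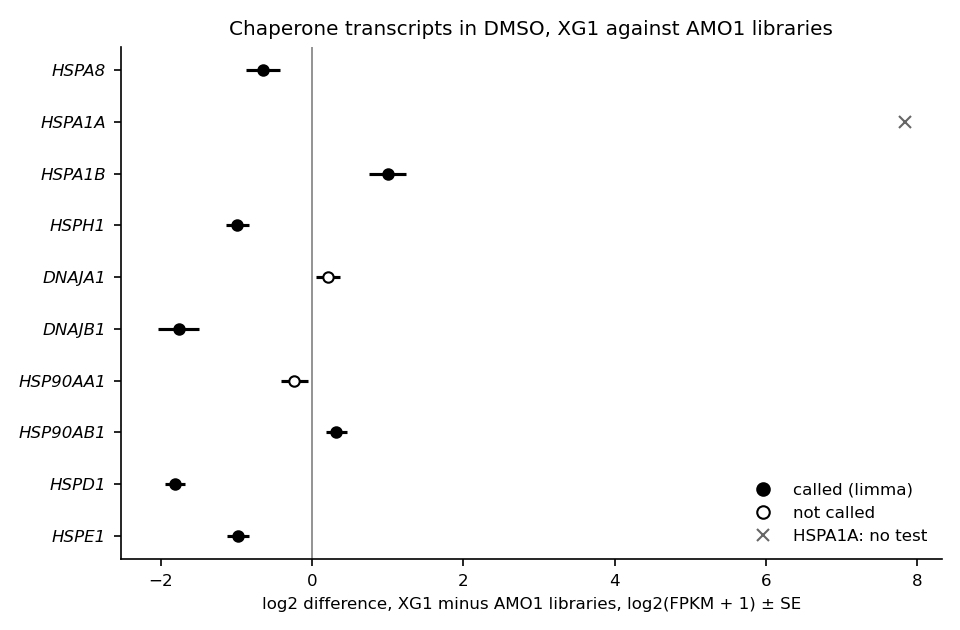
Difference of each member between XG1 and AMO1 libraries with DMSO, as log2(FPKM + 1), with limma estimates and bars of 1 SE. Filled points passed the test, open ones did not, and the cross marks HSPA1A, which was not tested. HSPA1A lies at 7.84, while HSPD1 and DNAJB1 are the lowest at -1.82 and -1.77.

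Genes whose changes were nearest to those of HSPA8 were found by the root mean square distance over the 6 group means of log2(FPKM + 1), each centred on its line. The values were not scaled, so the distance takes in the size of a change as well as its course. A gene with a smaller fall of like course thus ranks farther. Among the 12203 other genes tested the nearest were HNRNPDL (0.15), CUTC (0.17), METTL1 (0.17), SNHG3 (0.18) and SRSF3 (0.19), the last a splicing factor and HNRNPDL an RNA-binding protein. DNAJA1 was the nearest member, at rank 245 with a distance of 0.49. HSPE1 ranked 1826, DNAJB1 2143 and HSPD1 3208. The other 5 members ranked between 3982 and 7113. HSPA1A was the farthest, a rank that rests in part on its low AMO1 values. These distances rest on the same 18 libraries and on the fall that HSPA8 was selected for, and carry no test.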

How the data were processed

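RNA came from 18 libraries in 6 groups of 3, grouped and numbered by the labels. Per the labels' protocols cells were lysed in TRIzol and libraries made by the QuantSeq 3′ method. HISAT2, Cuffnorm and the build hg19 are named in the submitters' processing notes. Versions, annotation and strand setting were not given in the sources used here. Values deposited by the authors are taken to be FPKM because Cuffnorm gives that unit, and the file headers say only that they are expression. They are not whole multiples of a read, so depth is unknown, and no counting interval or count model was used. No value was 0 and no 2 libraries were identical.

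The 12204 genes whose mean reached 1 FPKM in 1 or more groups were tested with limma 3.58.1 (R 4.3.3, statmod 1.5.0), trend and robust, on log2(FPKM + 1). 1 fit held all 18 libraries and 9 two-sided comparisons, with Benjamini-Hochberg adjustment over all genes tested and a threshold of 0.05, and "called" means past it. A fold on this scale understates changes of low genes. The filter can pass a gene through its higher group alone, and all 10 members passed. The test was tried on simulated data.

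The members and lists were chosen with earlier results of these data known. All 10 members, HSF1 and HSF2 are named, with up to 3 called genes per list, direction and dose comparison, and the 5 genes nearest HSPA8. The promoter, motif and 3′ end searches were chosen after the values were seen. Alternatives were other pseudocounts (0.1 and 5), filters (none, or 5 FPKM), scalings (library median, quantile, 44 of 92 ERCC spike-ins), a replicate block, limma without trend or robust estimation, a fit of the compared libraries alone, and leaving out each library.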

Additional observations from a re-analysis of the deposited data

How the results depend on the processing

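Over 90 pairs of a member and a comparison, 0 of the 18 called ones changed sign in any alternative run, 7 lost the call in at least 1, and 9 of the others gained one in at least 1. Sign changes numbered 88, in 35 pairs not called with all libraries as deposited, and 1 of them was past the threshold, HSP90AA1 between the lines after quantile normalization. These counts, and those that follow, include HSPA8 and HSPA1A, whose changes with the drug and difference between the lines are not read as tests. The causes of the changes were not tested. The depth of the libraries, which is unknown, limits what can be said of HSPA1A in AMO1. Same-numbered libraries of a line did not deviate together, with correlations of -0.12 to 0.091 over 18 pairs and 0 over 0.1, and 4 of 18 libraries correlated best with their own number. The count of members called at 100 nM against DMSO in XG1 was 1 with the replicate block and 2 without it, DNAJA1 losing its call with a limma adjusted p of 0.0528. The replicate block also ended the call of HSP90AB1 between the lines (limma adjusted p = 0.0574) and changed no other count. At 1000 nM in XG1 the count was 2 with library median centring, beside 7.94% of all genes called lower and 7.94% higher. At 100 nM in AMO1, where HSPA8 was the only member counted, the count was 0 in a fit of the compared libraries alone. At 1000 against 100 nM in AMO1 it was 1, DNAJA1, with a pseudocount of 5, with a minimum group mean of 5 FPKM and with spike-in scaling. With 1 library left out in turn, the count of members called ranged over 1 to 2 for 100 nM against DMSO in XG1, 2 to 4 for 1000 nM against DMSO in XG1, 1 to 2 for 100 nM against DMSO in AMO1, 3 to 7 for 1000 nM against DMSO in AMO1, 0 to 1 for 1000 against 100 nM in AMO1, 6 to 8 for XG1 against AMO1 with DMSO and 0 to 1 for the difference of the lines' responses at 1000 nM. The 7 for 1000 nM against DMSO in AMO1 came without AMO1 DMSO replicate 3. There 23.7% of all genes were called lower, against 15.4% with all libraries. Shares of all genes under the remaining alternatives and left-out libraries are not given here. With library median centring some log2 changes turned sign. For 1000 nM against DMSO in XG1, HSPA1B was at 0.19, DNAJB1 at 0.056, HSP90AA1 at 0.016 and HSP90AB1 at 0.12. For 100 nM against DMSO in AMO1, HSPA1B was at 0.13, HSPH1 at 0.17, HSP90AA1 at 0.034 and HSPD1 at 0.15. For 1000 nM against DMSO in AMO1, HSPA1A was at 0.27, HSPH1 at 0.015, HSP90AA1 at 0.043, HSP90AB1 at 0.036 and HSPD1 at 0.027. For 1000 against 100 nM in XG1, HSPH1 was at 0.15, DNAJA1 at 0.048, HSP90AA1 at 0.16, HSP90AB1 at 0.19 and HSPD1 at 0.079. For 1000 against 100 nM in AMO1, HSP90AA1 was at 0.0096. In the lines' difference of response at 100 nM, HSPE1 was at -0.064. For the difference of the lines' responses at 1000 nM, HSP90AA1 was at -0.028. With quantile normalization some log2 changes turned sign. For 1000 nM against DMSO in XG1, HSPA1B was at 0.27 and DNAJB1 at 0.097. For 100 nM against DMSO in AMO1, HSPA1B was at 0.12, HSPH1 at 0.025 and HSP90AB1 at -0.072. For 1000 against 100 nM in XG1, HSPH1 was at 0.082, HSP90AA1 at 0.0051 and HSP90AB1 at 0.053. For 1000 against 100 nM in AMO1, HSP90AA1 was at 0.063. For XG1 against AMO1 with DMSO, HSP90AA1 was at 0.44. In the lines' difference of response at 100 nM, DNAJB1 was at 0.053 and HSP90AA1 at 0.085. For the difference of the lines' responses at 1000 nM, HSPH1 was at 0.032. With spike-in scaling some log2 changes turned sign. For the difference of the lines' responses at 100 nM, HSP90AA1 was at 0.017. With a pseudocount of 5 some log2 changes turned sign. For 1000 nM against DMSO in AMO1, HSPA1A was at 0.0018. With 1 library left out in turn, log2 changes that turned sign had these ranges. For 100 nM against DMSO in XG1 the range was -0.33 to 0.018 for HSPA1B, -0.33 to 0.053 for HSP90AA1 and -0.23 to 0.00057 for HSPE1. For 1000 nM against DMSO in XG1 the range was -0.29 to 0.21 for HSPA1B. For 100 nM against DMSO in AMO1 the range was -0.20 to 0.15 for HSPA1B, -0.084 to 0.048 for HSPH1, -0.72 to 0.074 for DNAJB1, -0.11 to 0.099 for HSP90AB1 and -0.16 to 0.070 for HSPD1. For 1000 nM against DMSO in AMO1 the range was -0.26 to 0.14 for HSPA1A. For 1000 against 100 nM in XG1 the range was -0.14 to 0.36 for HSPA1B, -0.18 to 0.064 for HSPH1, -0.30 to 0.092 for HSP90AA1 and -0.13 to 0.058 for HSP90AB1. In the lines' difference of response at 100 nM the range was -0.36 to 0.045 for HSPA8, -0.30 to 0.068 for HSPA1B, -0.37 to 0.42 for DNAJB1, -0.19 to 0.20 for HSP90AA1 and -0.18 to 0.031 for HSP90AB1. For the difference of the lines' responses at 1000 nM the range was -0.11 to 0.025 for HSPH1, -0.095 to 0.21 for HSP90AA1 and -0.0061 to 0.16 for HSPE1.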
